A study of Mus musculus with 4 samples.

Results

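The mitochondrial genome is copied and transcribed, and its RNA kept stable, by proteins that are encoded in the nucleus. The genes of 10 such proteins were followed here in mouse breast cancer cells with high or low mitochondrial membrane potential (MMP). They were chosen by name, for what their products do, and all 10 were found among the 20197 genes of the deposited table. RNA had been sequenced from 4T1 cells, a mouse mammary tumor line used as a model of metastatic triple negative breast cancer. All samples carried the wild-type genotype and the cells, grown in culture, had received no agent other than the dye MitoSpy Red at 20 nM, which gathers in mitochondria of high potential. The brightest 5% and the dimmest 5% were sorted as high and low MMP cells, with 2 samples of 100000 cells per group. The study counts the samples of each group as independent experiments, and p-values measure the spread between them. The groups are the extremes of a single stain in a single cell line, and no unsorted sample was analysed here.

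Transcription of mitochondrial DNA needs the single-subunit RNA polymerase *Polrmt*, the DNA-packaging factor *Tfam*, which also brings the polymerase to the promoters, and *Tfb2m*, which helps to open the DNA. *Tfb1m*, a paralog of *Tfb2m*, methylates the small ribosomal RNA of mitochondria. The DNA is copied by polymerase gamma, made of the catalytic subunit *Polg* and the accessory subunit *Polg2*, together with the helicase *Twnk* and the single-strand binding protein *Ssbp1*. *Lrpprc* and *Slirp* form a complex that protects mitochondrial messenger RNAs.

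The libraries held 22591970 to 26395015 reads, and levels are given as normalized reads, on a scale where each library sums to 20000000. All 7 mammary epithelial markers looked up were present, with summed levels of 66604 and 48646 in high and 55865 and 63692 in low MMP cells. Of the defining markers of other cell types, *Ptprc* of leukocytes had at most 2 reads in any library, and *Cdh5* and *Pecam1* of endothelium at most 3 and 7. *Cd68*, a further leukocyte marker, was read in every library, at 59.9 and 139 normalized reads in high and 149 and 91.2 in low MMP cells, while *Adgre1*, *Cd3e*, *Kdr* and *Lum* were not rows of the table. The 3 fibroblast markers in the table summed to 334 and 374 in high and to 548 and 604 in low MMP cells, almost all from *Pdgfra*. The cell cycle lists also moved with the groups: 54 G2/M-phase genes summed to 264836 and 274755 in high and to 203016 and 209034 in low MMP cells, and 43 S-phase genes to 119273 and 101104 in high and to 140338 and 142589 in low MMP cells. The part of these marker lists in the results below was not tested.

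The promoters of these genes are printed for 4 members that differ in behaviour below, as context for their levels: *Tfam*, which hardly varied, *Polg* and *Polg2*, whose groups did not overlap, and *Slirp*, whose high MMP samples were the highest and the lowest of the 4. Each window runs from 250 bases before to 50 bases after the RefSeq transcription start on GRCm38.p6, 5′ to 3′ on the strand of the gene, and capitals mark matches to motifs searched on both strands. The windows are chr10:71237995-71238294 (minus strand) for *Tfam*, chr7:79466224-79466523 (minus) for *Polg*, chr11:106779488-106779787 (minus) for *Polg2* and chr12:87443646-87443945 (plus) for *Slirp*.
Tfam: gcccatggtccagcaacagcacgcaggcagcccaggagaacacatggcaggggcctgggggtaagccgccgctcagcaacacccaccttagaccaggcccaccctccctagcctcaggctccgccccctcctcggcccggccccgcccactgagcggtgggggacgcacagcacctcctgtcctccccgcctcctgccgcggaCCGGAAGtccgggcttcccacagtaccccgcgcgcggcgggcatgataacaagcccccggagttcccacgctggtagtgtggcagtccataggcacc
Polg: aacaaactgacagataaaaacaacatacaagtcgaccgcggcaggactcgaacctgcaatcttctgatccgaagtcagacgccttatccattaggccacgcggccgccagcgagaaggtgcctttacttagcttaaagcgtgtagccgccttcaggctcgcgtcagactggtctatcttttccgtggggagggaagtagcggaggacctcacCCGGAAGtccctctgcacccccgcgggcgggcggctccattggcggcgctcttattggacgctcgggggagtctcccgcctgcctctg
Polg2: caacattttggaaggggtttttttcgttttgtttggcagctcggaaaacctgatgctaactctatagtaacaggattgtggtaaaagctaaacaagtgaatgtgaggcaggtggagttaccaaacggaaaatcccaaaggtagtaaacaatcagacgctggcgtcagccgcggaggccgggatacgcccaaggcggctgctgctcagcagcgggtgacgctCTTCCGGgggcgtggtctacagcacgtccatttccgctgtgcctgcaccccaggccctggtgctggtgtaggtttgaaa
Slirp: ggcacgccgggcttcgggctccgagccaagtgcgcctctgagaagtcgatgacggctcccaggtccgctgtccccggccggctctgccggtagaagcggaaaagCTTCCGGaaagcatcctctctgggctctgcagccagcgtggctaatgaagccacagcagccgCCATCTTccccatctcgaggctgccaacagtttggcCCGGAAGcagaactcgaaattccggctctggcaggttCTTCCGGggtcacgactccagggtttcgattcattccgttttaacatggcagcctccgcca
The ETS motif CCGGAAG, the core bound by the ETS family with GABP among them, was found in windows of 7 of the 10 genes, against 8.86% of all 32851 windows in the table and 22.5% of the 8270 protein-coding genes averaging 50 or more normalized reads. Its first base lay 47 bases before the start in *Tfam* and *Ssbp1*, 43 in *Polrmt*, 38 in *Polg* and 29 in *Polg2*. *Slirp* held 3 matches, at 146, 48 and 11 bases before the start, and *Twnk* held 2 in the second of its windows. The RefSeq starts used for *Tfam*, *Polg*, *Ssbp1* and the second window of *Twnk* lie inside the gene spans given below. Their matches thus lie before the RefSeq start but inside those spans. The other letters in capitals are the YY1 motif AAGATGG, present in *Slirp* alone of the 10 and in 8.81% of the 8270 genes. The NRF1 core TGCGCA was in *Polrmt* and *Tfb2m* (17.2% of the 8270 genes), and the E-box CACGTG was in none of the 10 (12.3%). No overlap between different motifs occurred in the printed windows, and a match describes the letters only. Only these exact spellings were searched, so a gene without a match can hold another form of the site.

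The groups overlapped for all 3 transcription factors. *Tfam* (ENSMUSG00000003923, GRCm38 chromosome 10, 71225464 to 71238280) had 1743 and 1740 normalized reads in the high MMP samples 1 and 2 and 1788 and 1724 in the low MMP samples 1 and 2. The highest library was thus only 3.73% above the lowest, the smallest range of the 10 genes, and the high MMP samples lay within the range of the low. The log2 difference of high minus low MMP was -0.01 (SE 0.07; 95% interval -0.21 to 0.19), with an adjusted p of 0.994 in limma, and it became 0.03 after median-of-ratios rescaling. *Polrmt* (ENSMUSG00000020329, chromosome 10, 79736123 to 79746581), the polymerase itself, had 608 and 803 in high and 785 and 785 in low MMP cells. Here a single library, high MMP 1, was low, and the other 3 were nearly equal. Its log2 difference was -0.17 (SE 0.16, 95% interval -0.60 to 0.26, limma adjusted p 0.827) with all libraries. It was 0.03 without high MMP 1 and -0.37 without high MMP 2. *Tfb2m* (ENSMUSG00000026492, chromosome 1, 179528055 to 179546267) had 539 and 576 in high and 580 and 507 in low MMP cells, so both high samples lay between the low ones, at a log2 difference of 0.04 (SE 0.11; adjusted p 0.970).

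**Figure D1:**
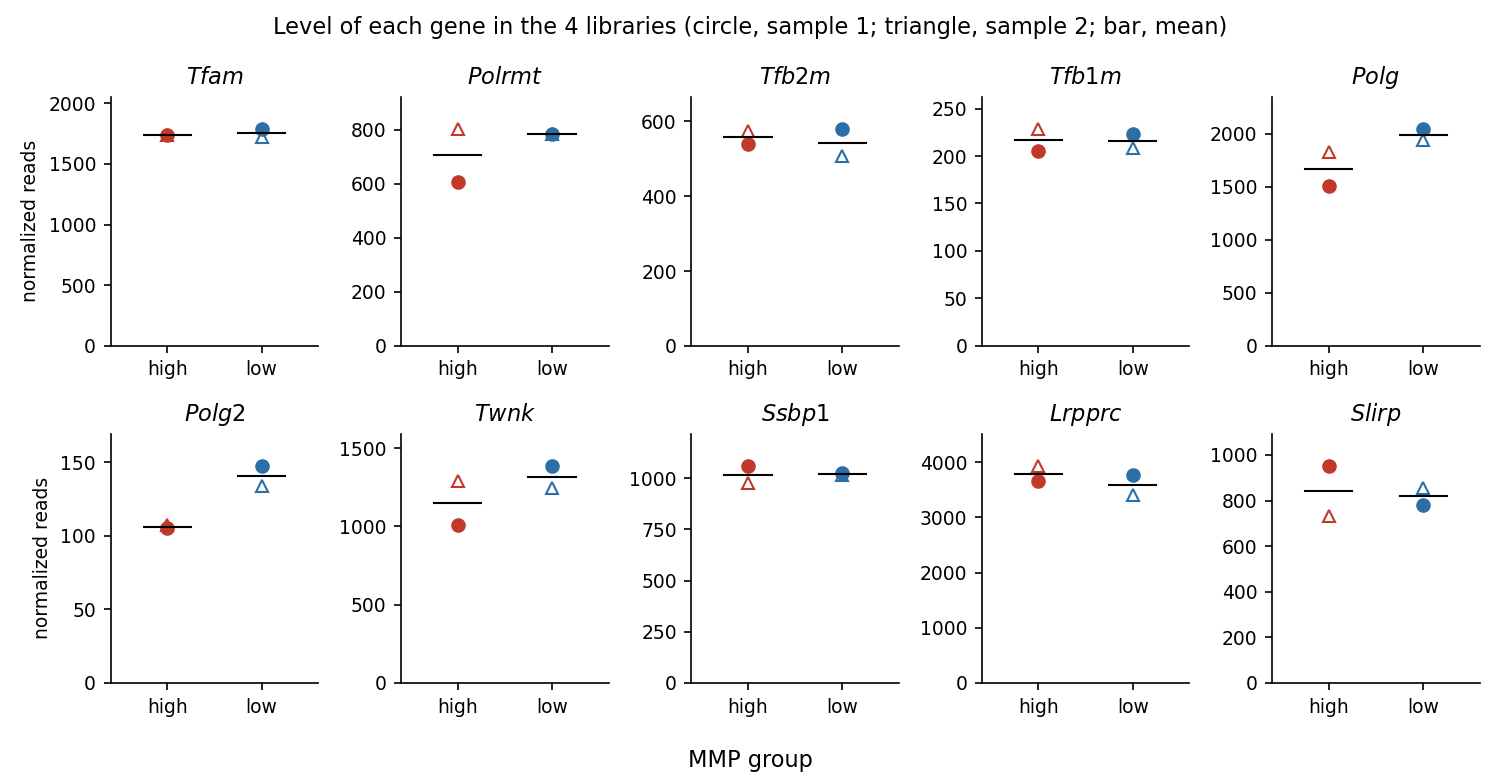
Normalized reads (y axis, from 0, library total 20000000) of the 10 genes in high (red) and low MMP cells (blue), with circles for samples 1, triangles for samples 2 and bars for means. The groups separate for *Polg* and *Polg2* only, and high MMP 1 is the lowest library for *Polrmt*, *Polg*, *Polg2*, *Twnk* and *Tfb1m* and the highest for *Slirp* and *Ssbp1*.

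*Tfb1m* (ENSMUSG00000036983, chromosome 17, 3519256 to 3557781), the ribosomal RNA methyltransferase, had 205 and 228 normalized reads in high and 223 and 209 in low MMP cells. The low MMP samples lay inside the range of the high, and the log2 difference was 0.00 (SE 0.12; 95% interval -0.32 to 0.33; limma adjusted p 0.994).

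Among the role groups of the members with more than 1 gene, only the replication genes were all at a negative log2 difference (*Ssbp1* turned positive after rescaling). Of all 20197 genes, 11838 were negative. The median was -0.23 over the 4 replication genes, against 0.02 over the other 6 members and -0.04 over all genes. *Polg2* (ENSMUSG00000020718, chromosome 11, 106768253 to 106779537), the accessory subunit that makes the polymerase processive, had 105 and 107 normalized reads in high and 147 and 134 in low MMP cells. The high MMP samples lay close together and both below the low ones. The means were 106 ± 1.27 for high and 141 ± 9.65 for low MMP (SD over 2 samples each), a fold of 0.756. The log2 difference was -0.40 (SE 0.13; 95% interval -0.77 to -0.03), the largest of the 10 in size, with an unadjusted p of 0.0390 and an adjusted p of 0.472 in limma. It is also the least deeply read member, at 128 to 169 reads per library. The exact Poisson 95% intervals, which cover counting error only, ran from 88.5 to 124 in high MMP 1 and from 89.4 to 127 in high MMP 2. They ran from 126 to 171 in low MMP 1 and from 113 to 157 in low MMP 2. Only the intervals of high MMP 1 and low MMP 1 were apart, and every other pair of libraries overlapped within counting error.

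*Polg* (ENSMUSG00000039176, chromosome 7, 79446231 to 79466362), the catalytic subunit, had 1504 and 1826 normalized reads in high and 2043 and 1939 in low MMP cells. Both high MMP samples were again below both low ones, but high MMP 1 lay farther away than high MMP 2. The means were 1665 ± 228 for high and 1991 ± 73.4 for low MMP (SD over 2 samples each). The log2 difference was -0.26 (SE 0.12, 95% interval -0.60 to 0.07, limma adjusted p 0.610). It moved to -0.12 without high MMP 1 and to -0.40 without high MMP 2. *Twnk* (ENSMUSG00000025209, chromosome 19, 45005663 to 45012762), the helicase, had 1009 and 1289 in high and 1384 and 1247 in low MMP cells. The groups overlapped, and the log2 difference of -0.20 (SE 0.15, limma adjusted p 0.761) was -0.03 without high MMP 1 and -0.38 without high MMP 2. *Ssbp1* (ENSMUSG00000029911, chromosome 6, 40471352 to 40484700), which coats single-stranded DNA, had 1059 and 977 in high and 1026 and 1016 in low MMP cells, with the low samples between the high ones. Its log2 difference was -0.01 (SE 0.08; 95% interval -0.23 to 0.22; adjusted p 0.994), and 0.04 after rescaling. The negative median of the replication genes therefore came from *Polg2*, *Polg* and *Twnk*, and without high MMP 1 it was -0.09.

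The RNA stability partners did not vary together across the libraries. *Lrpprc* (ENSMUSG00000024120, chromosome 17, 84705247 to 84790789), which binds mitochondrial messenger RNA, had 3661 and 3931 normalized reads in high and 3776 and 3412 in low MMP cells. The groups overlapped, with a log2 difference of 0.08 (SE 0.10; limma adjusted p 0.874). *Slirp* (ENSMUSG00000021040, chromosome 12, 87443896 to 87452206), its small RNA-binding partner, had 951 and 733 in high and 782 and 857 in low MMP cells. The high MMP samples were the highest and the lowest of the 4, so the log2 difference of 0.03 (SE 0.16, limma adjusted p 0.994) turned to -0.16 without high MMP 1 and to 0.22 without high MMP 2. Most exonic bases of *Slirp* lie opposite another gene, as given below, so its reads and its ratio to *Lrpprc* are uncertain.

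In limma's test, 0 of the 10 members passed an adjusted p of 0.05, as did 0% of all 20197 genes. At an unadjusted p under 0.05 there was 1 member, *Polg2*, against 9.96% of all genes (6.01% lower and 3.95% higher in high MMP cells). In limma this depended on the setting. There were 0 members after median-of-ratios rescaling, with a pseudocount of 10 or with same sample numbers as a block (1997, 1560 and 1055 of all genes). With crossed sample numbers there were 2, *Polg* and *Polg2* (2128 of all genes). On the recovered reads, edgeR's quasi-likelihood test called 0 members and 0% of all genes, with 0 members and 7.05% of all genes at an unadjusted p under 0.05, and DESeq2 called 0 members and 0.985% of the 11974 genes it adjusted (0 members and 3.27% of all genes at an unadjusted p under 0.05). With same or crossed sample numbers as a block, edgeR called 0 members, against 0.525% and 3.63% of all genes. Groups that did not overlap were found for 2 members, *Polg* and *Polg2*, both lower in high MMP cells, while 24.5% of all genes were lower and 13.5% higher without overlap (23.1% and 14.8% of those averaging 50 normalized reads or more), so 2 of 10 is near the background. The median log2 difference was -0.01 over the members and -0.04 over all genes. The 95% intervals left out a 2-fold difference in either direction for all 10 genes and a 1.5-fold difference for 6, which are *Tfam*, *Tfb2m*, *Tfb1m*, *Ssbp1*, *Lrpprc* and *Slirp*.

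**Figure D2:**
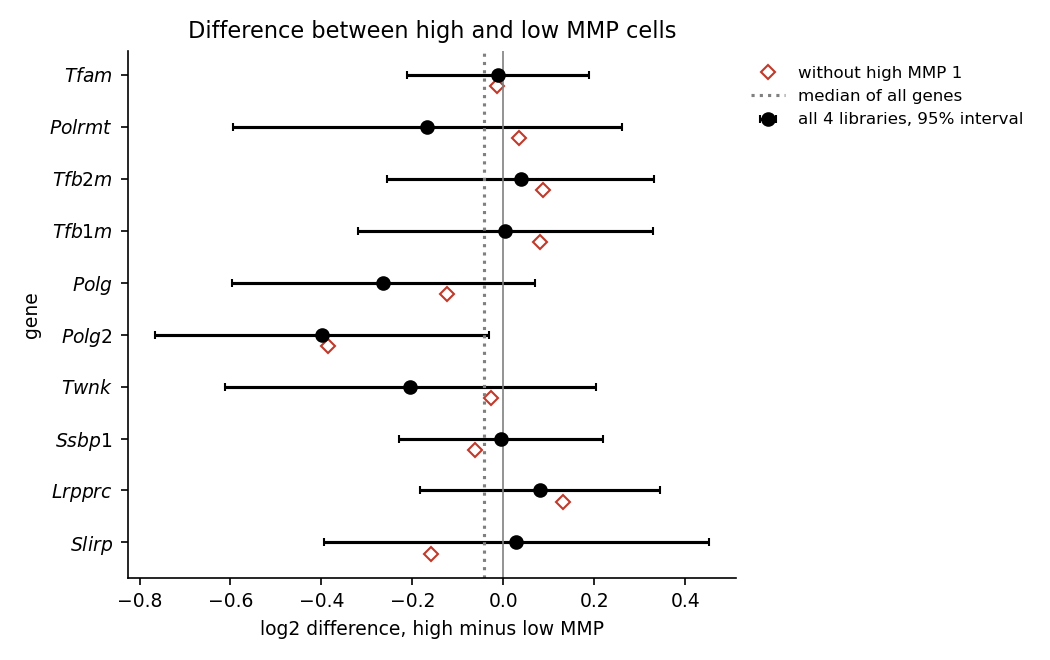
Log2 difference of high minus low MMP (x axis) for the 10 genes (y axis), with the limma 95% interval from all 4 libraries (black) and the value without high MMP 1 (open red). The interval lies below 0 for *Polg2* only, and *Polrmt* and *Slirp* change sign without high MMP 1.

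Ratios between partner genes within a library do not depend on how libraries are scaled. Differences between libraries by transcript length, described below, can remain in them, and their part was not tested. The log2 ratio of *Slirp* to *Lrpprc* was -1.94 and -2.42 in high and -2.27 and -1.99 in low MMP cells, so the means of -2.18 ± 0.34 for high and -2.13 ± 0.20 for low MMP (SD over 2 samples each) differed by less than the spread. For *Polg2* to *Polg* it was -3.82 and -4.08 in high and -3.78 and -3.85 in low MMP cells, and the subunits of polymerase gamma thus kept overlapping ratios in the groups. For *Tfb1m* to *Tfb2m* it ran from -1.39 to -1.28 over the 4 libraries, the tightest of the 4 ratios. For *Tfam* to *Polrmt* it was 1.52 in high MMP 1 and 1.11 to 1.19 in the other libraries. The exact two-sided permutation test gave p-values of 0.667 to 1.00 for these 4 ratios, and 2 samples against 2 cannot go below 0.333.

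For most members the gap between the high MMP samples was larger than the difference between the groups. A gap between single libraries varies more than a difference between means, so a larger gap is usual where groups do not differ. For 8 of the 10 genes the gap between the high MMP samples was larger than the log2 difference between the groups, with *Polg2* and *Tfam* as the exceptions. The share of all genes with a larger gap was not counted. Over 12902 genes the SD of the gap was 0.40 between the high and 0.29 between the low MMP samples. High MMP 1 was lower than high MMP 2 by 0.40 for *Polrmt*, by 0.35 for *Twnk* and by 0.28 for *Polg*, as log2 differences, and higher by 0.37 for *Slirp* and by 0.12 for *Ssbp1*. The gaps between the low MMP samples were -0.13 to 0.19. Of the 10 genes, 7 were lower in high MMP 1 than in high MMP 2, and the median absolute gap was 0.13 between the high, 0.11 between the low MMP samples and 0.06 between the groups. The median signed gap of high MMP 1 minus high MMP 2 was -0.10 over the members and -0.02 over all genes.

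**Figure D3:**
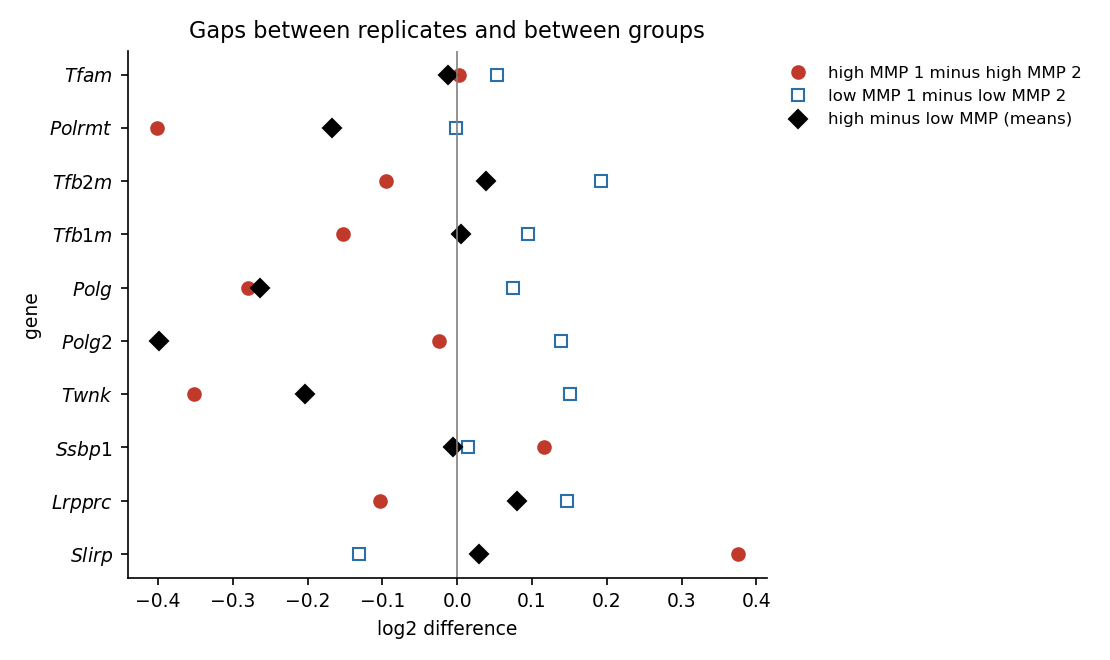
Signed log2 differences (x axis) for each gene (y axis) between the high MMP samples (red), between the low MMP samples (blue) and between the group means (black). The red points of *Polrmt*, *Slirp*, *Twnk* and *Polg* lie farther from 0 than every black point other than that of *Polg2*, and the red point of *Polrmt* (-0.40) lies about as far out as the black point of *Polg2* (-0.40).

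High MMP 1 also stood apart in the product of this machinery. Transcripts of the mitochondrial genome, summed over the 24 mitochondrial rows of the table, took a share of 1.35% in high MMP 1, with a Wilson 95% interval of 1.34% to 1.35%, and 2.29% in high MMP 2, 2.15% in low MMP 1 and 2.37% in low MMP 2. The interval covers counting error only. The share in high MMP 2 lay between those of the low MMP samples, and the groups (1.82% ± 0.67 against 2.26% ± 0.16, SD, n = 2 each) gave p 0.667 in the exact permutation test. *Tfam*, at 1743 and 1740 normalized reads, was nearly equal in the 2 high MMP libraries, whose mitochondrial shares differed 1.70-fold. Of the 10 members, 7 were lower in high MMP 1 than in high MMP 2, as the share was. *Polrmt* had 608 and 803 there, while *Slirp* went the other way at 951 and 733. The share is that of stranded mRNA libraries, and how far it follows transcription was not tested. The high MMP samples also differed by transcript length. In all, 11361 protein-coding genes averaging 10 or more normalized reads were cut into 4 bins of equal size by transcript length, and the median log2 difference of high MMP 1 minus high MMP 2 was 0.15 in the bin of the shortest, 0.01 and -0.06 in the middle bins and -0.19 in the bin of the longest. Against the mean of the low MMP samples, both departed, in opposite directions: the medians were 0.06 for the shortest and -0.12 for the longest in high MMP 1, and -0.09 and 0.06 in high MMP 2. Between the low MMP samples the medians ran from -0.05 to 0.06. By GC content, the medians between the high MMP samples were 0.00 in the bin with the least and -0.08 in that with the most, where *Polrmt* belongs. For high minus low MMP the medians were 0.005, -0.005, -0.034 and -0.10 from the bin with the least to that with the most. *Polg*, *Polg2* and *Twnk* were in the bin at -0.034, and the remaining members in the bins at 0.005 and -0.005. *Polg* was the only member in the longest bin, and *Tfb1m* and *Polg2*, in the shortest, had gaps of -0.15 and -0.02. The part of transcript length, GC content and the library high MMP 1 in the members' differences was not tested, beyond the values with a high MMP sample left out given above. In bulk samples, fewer cells with a transcript and less of it per cell cannot be told apart.

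The order of the members was compared per length, as normalized reads per kilobase of a coding transcript in GENCODE M21. The transcripts taken had 2701 bases for *Slirp* and 4398 for *Ssbp1*. With these lengths *Lrpprc* ranked first, at 777 to 895 over the 4 libraries, followed by *Tfam* at 414 to 429, and neither overlapped its neighbour. *Twnk* (289 to 397) and *Slirp* (271 to 352) came next and overlapped each other. *Polg*, *Ssbp1*, *Tfb2m*, *Polrmt* and *Tfb1m* followed with means from 233 down to 154, and each overlapped the next in this order. *Polg2* was lowest, at 69.9 to 97.8, below every other member in every library, and its mean of 81.9 compares with 233 for its catalytic partner *Polg* (28.3 and 170 with the length of all annotated exons). The order depends on the transcript taken: with all annotated exons the first 4 places, *Tfb1m* in place 9 and *Polg2* in place 10 were as before, but *Ssbp1* moved from place 6 to 8. The means of *Lrpprc* and *Tfam* were then close, at 435 and 394. Shorter transcripts, which would raise a gene's level per length, were not tried, so the order holds for these lengths only.

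**Figure D4:**
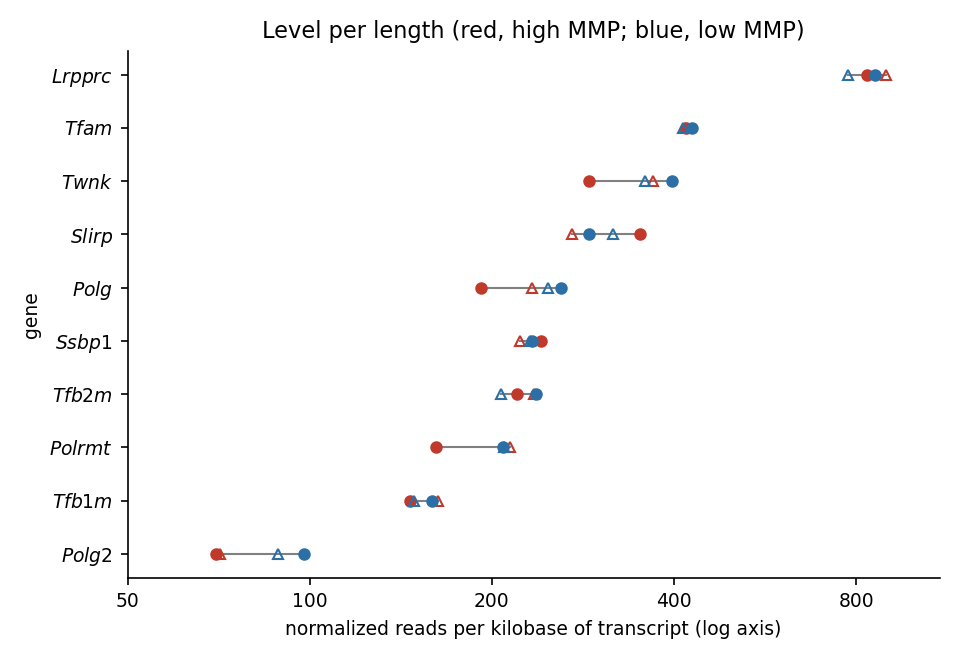
Level per length (x axis, normalized reads per kilobase of transcript, log axis) of the 10 genes (y axis, ordered by their mean) in the high (red) and low MMP libraries (blue; circles are samples 1, triangles samples 2). With the transcript lengths taken, *Lrpprc* and *Tfam* stand above the rest and *Polg2* below, and for *Polg2* and *Polg* the red points lie left of the blue.

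A wider list of 58 genes of mitochondrial DNA and RNA metabolism, none of them among the 10, was then described. In limma 0 of 58 had an adjusted p under 0.05, and 3 had an unadjusted p under 0.05, all lower in high MMP cells, against 6.01% of all genes in that direction. The groups did not overlap for 19 genes lower and 5 genes higher in high MMP cells, which is 32.8% and 8.62% of the list against 24.5% and 13.5% of all genes. The median log2 difference was -0.05 against -0.04 over all genes. By role, the median was -0.15 over 14 genes of replication and nucleotide supply, 12 of which were negative (11838 of all 20197 genes were). It was -0.07 over 5 nucleoid genes, -0.05 over 19 genes of RNA processing and decay, -0.04 over 13 genes of rRNA and tRNA modification and -0.01 over 7 genes of transcription.

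The 3 genes at an unadjusted p under 0.05 were *Dna2*, *Primpol* and *Mrm1*. *Dna2*, a nuclease and helicase that works in the nucleus as well as in mitochondria, had 369 and 397 normalized reads in high and 614 and 641 in low MMP cells. Both high MMP samples were far below both low ones, with means of 383 ± 20.1 and 627 ± 19.2 (SD, n = 2 each). Its log2 difference was -0.71 (SE 0.09; unadjusted p 0.00116), and its adjusted p was 0.472 in limma, 0.524 in edgeR and 0.0290 in DESeq2, so that the call depended on the model. *Primpol*, which restarts stalled DNA synthesis in the nucleus and in mitochondria, had 320 and 302 in high and 387 and 394 in low MMP cells, a log2 difference of -0.33 (SE 0.09; limma adjusted p 0.472). *Mrm1*, a methyltransferase of the large mitochondrial ribosomal RNA, had 164 and 151 in high and 207 and 196 in low MMP cells, a log2 difference of -0.35 (SE 0.12; adjusted p 0.472). The groups did not overlap for these 3 genes. They were picked by a small p in the same libraries, so this adds no support. The S-phase list, which shares *Fen1* with the wider list, had a median log2 difference of -0.33 with 40 of 43 genes negative, and its part in the values of the replication genes was not tested.

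**Figure D5:**
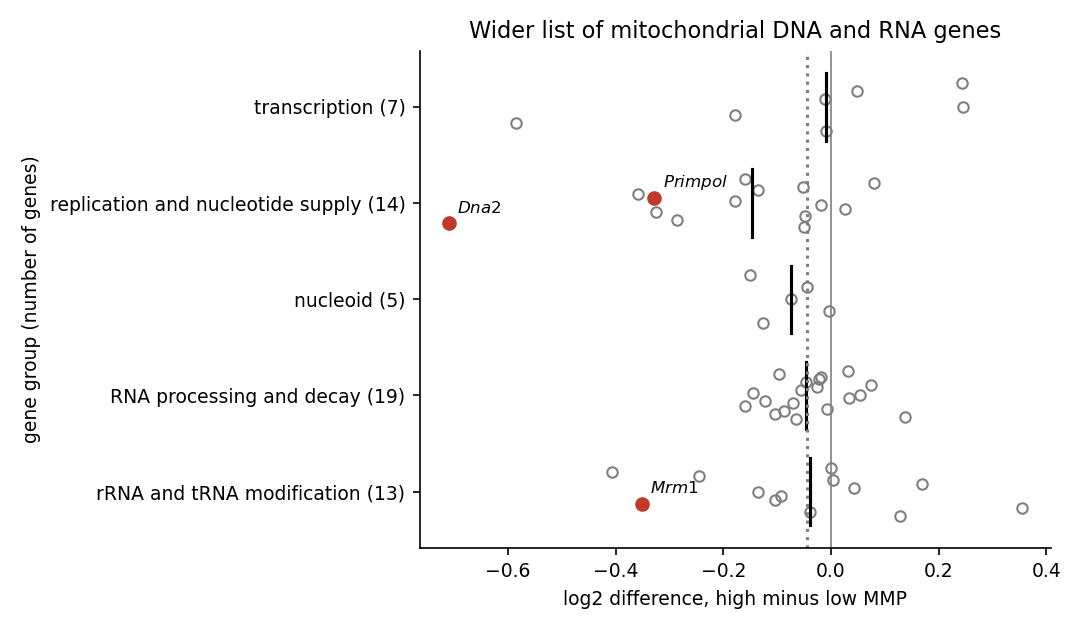
Log2 difference of high minus low MMP (x axis) for the 58 genes of the wider list, 1 point per gene, in 5 role groups (y axis; black bars are medians, the dotted line is the median of all genes). The 3 filled points, *Dna2*, *Primpol* and *Mrm1*, have an unadjusted p under 0.05 and lie left of 0, and the bar of the replication group is the farthest from 0.

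Some members share sequence with a neighbouring gene on the opposite strand. *Slirp* shared 2914 of its 3104 exonic bases with *Snw1*. *Polg* shared 921 with *Fanci*, *Twnk* 507 with *Mrpl43*, *Tfb1m* 142 with *Tiam2* and *Polg2* 132 with *Milr1*. The library kit keeps the strand, but the setting used for counting is not given in the sources used here, so reads of these stretches are uncertain. *Snw1* had 3238 to 3843 reads per library and *Fanci* 513 to 616, while *Milr1*, the neighbour of *Polg2*, had at most 2.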

How the data were processed

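Per the labels and the study's methods, RNA of sorted 4T1 cells (200 ng) entered a stranded mRNA library preparation. The authors aligned reads to GRCm38 (mm10) with STAR, counted per gene (HTSeq is also named in the submitters' processing notes), scaled each library by its total and left out genes seen in fewer than 2 samples. Versions and annotation release are not given in the sources used here. The deposited values are thus a normalized signal whose columns sum to 20000000, and 100.0% of values were whole multiples of 1 step per library (tolerance 0.01 reads), which gave back the reads.

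Differences were tested in limma 3.58.1 (trend; R 4.3.3) on log2 values with a pseudocount of 1, over all 20197 genes, high against low MMP, with Benjamini-Hochberg adjustment at 0.05. A fold on this scale understates the change of low genes. Groups and replicate numbers came from the titles. Identifiers were matched to GENCODE M21 (19993 of 20197), and promoter windows are RefSeq's (found for all 10 genes). Alternatives were other pseudocounts, filters and scalings, no trend, a replicate block, each sample left out, and edgeR 4.0.16 and DESeq2 1.42.0 on the recovered reads. The scripts were tested on simulated data. The named genes are all members, up to 3 genes per direction of smallest unadjusted p under 0.05 in the wider list, and genes overlapping a member. The members, lists and tests were chosen with earlier results of these data known.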

Additional observations from a re-analysis of the deposited data

How the results depend on the processing

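The count of members past the threshold was 0 under every alternative run, and that of the wider list was 0 except for 1 gene, *Dna2*, in DESeq2 and in edgeR with crossed numbers as the block. The labels do not say whether samples of the same number were handled together. The deviations of same-numbered samples had a correlation of -0.421 across 12902 genes, which are not independent, and this value cannot decide how the samples were paired. With the replicate block limma called 0 genes in all and edgeR 106, against 0 and 0 without it, and no member was among them. With crossed numbers, a pairing chosen after seeing the data, limma called 0 and edgeR 733, again with no member, and DESeq2 without a block called 118.

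The median log2 difference of the members stayed within the replicate spread under every alternative, but its sign did not hold: from -0.0084 it went to 0.034 in DESeq2, 0.030 in edgeR, 0.029 in edgeR with either block, 0.033 after median-of-ratios rescaling and 0.012 after quantile normalization, and it ran from -0.05 to -0.02 when a sample was left out. That of the wider list, -0.05, was -0.012 in DESeq2, -0.016 in edgeR, -0.014 in edgeR with the replicate block, -0.015 with crossed numbers, -0.0095 after median-of-ratios rescaling and -0.0056 after quantile normalization, all scalings that also bring the median of all genes nearer 0, and it ran from -0.071 to -0.049 when a sample was left out. The difference in mitochondrial share, -0.44 percentage points, ran from -0.91 to 0.038 when a sample was left out (0.038 without high MMP 1).

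The sign of genes with differences near 0 changed. *Tfam* was at 0.029 in DESeq2, 0.025 in edgeR, 0.026 with the replicate block, 0.026 with crossed numbers and 0.030 after median-of-ratios rescaling. *Ssbp1* was at 0.038, 0.034, 0.032, 0.033 and 0.036 in the same order, and at 0.026 after quantile normalization. With a sample left out, the ranges that include both signs were -0.038 to 0.015 for *Tfam*, -0.063 to 0.053 for *Ssbp1*, -0.37 to 0.033 for *Polrmt*, -0.058 to 0.13 for *Tfb2m*, -0.072 to 0.081 for *Tfb1m* and -0.16 to 0.22 for *Slirp*. *Polg2* ran from -0.47 to -0.33, *Polg* from -0.40 to -0.12 and *Twnk* from -0.38 to -0.03. Where a sample is left out, the lone sample is assumed to vary like the other group.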
